A study of Cucumis melo with 8 samples.

Results

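The mature miRNAs of the miR2111 and miR399 families were followed through fruit development of the Hami melon (Cucumis melo). They were all sequences of the deposited table whose names began with cme-miR2111, cme-miR399 or cme-miR827, with each distinct sequence taken once. This gave 7 of the 71 distinct sequences in the table, carried by 9 of its 116 names. 1 sequence was miR2111 (cme-miR2111a and cme-miR2111b, written miR2111a/b below) and 6 were miR399 (names a to g, where d and e share a sequence), while 0 lines carried the name miR827. The 8 small RNA libraries came from fruit mesocarp of the variety 'Flavor No. 4', hand pollinated in a greenhouse, and the labels name no treatment. The young fruit was sampled 10 days after flowering (10DAF), the expanding fruit after 20 days (20DAF), the premature fruit after 30 days (30DAF) and the mature fruit after 40 days (40DAF). Each stage had 2 libraries, of which 1 came from a first batch (3 fruits pooled per stage, sequenced single-end on the Illumina GAIIx) and 1 from a second batch of the following season (1 fruit per stage, sequenced paired-end on the NextSeq). The batches thus differed at once in season, in sequencer and in the fruits pooled, and these cannot be told apart. The table holds only miRNAs, so that the mesocarp label could not be checked against marker genes.

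miR399, miR827 and miR2111 are known as the miRNAs of phosphate homeostasis. In Arabidopsis, miR399 accumulates when phosphate is short, travels in the phloem from shoot to root and cleaves the mRNA of PHO2, a ubiquitin-conjugating enzyme that removes phosphate transporters. There miR827 targets NLA, a ubiquitin ligase acting on the same transporters, and miR2111 also rises under phosphate starvation. miR2111 is directed against Kelch-repeat F-box protein mRNAs, and in Lotus japonicus it moves from shoot to root to repress TOO MUCH LOVE, an inhibitor of nodulation.

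The mature sequences below, written 5' to 3' from the deposited table with the seed (bases 2 to 8) in capitals, are shown because the names do not separate them by origin. The single miR2111 sequence is given first and the miR399 sequences follow.
miR2111a/b: tAATCTGCatcctgaggttta
miR399a: tGCCAAAGgagatttgccccg
miR399b: tGCCAAAGgagagttgcccta
miR399c: tGCCAAAGgagatttgcccgg
miR399d/e: tGCCAAAGgagagttgccctt
miR399f: tGCCAAAGgagaattgcac
miR399g: aGGGCTTCtctccattggcagg
miR399a to miR399f, 5 sequences, shared the seed GCCAAAG and their first 12 bases, and 0 other sequences of the table carried this seed. miR399g had the seed GGGCTTC, which no other sequence in the table had, and the seed of miR2111a/b, AATCTGC, was also its own. Counting positions from the 5' end, miR399a and miR399c were 1 base apart (C20G from miR399a to miR399c). miR399b and miR399d/e were also 1 base apart (A21T from miR399b to miR399d/e). As the authors allowed 1 mismatch in matching reads, reads of these close pairs may not be fully separated. Values of miR399a, miR399b, miR399c and miR399d/e, and the ratios that use them, are uncertain on that account. miR399f, at 19 nt the shortest of the 7, differed from miR399d/e by 2 bases (G13A and C18A).

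The precursor sequences of the study showed where miR399g lies. The hairpin MIR399d, 81 nt long, is printed because it holds both miR399g and miR399d/e, which are in capitals.
MIR399d: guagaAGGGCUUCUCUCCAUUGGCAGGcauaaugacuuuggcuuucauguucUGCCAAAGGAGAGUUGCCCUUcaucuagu
miR399g occupied bases 6 to 27 on the 5' arm and miR399d/e bases 53 to 73 on the 3' arm, and in the fold predicted by RNAfold (minimum free energy of -39.8 kcal/mol) 17 base pairs joined them. The 69 nt hairpin MIR399g held the same pair of sequences, again with 17 base pairs between them. The MIR399e hairpin, 82 nt long, held miR399d/e exactly and miR399g with 1 difference (G3A, counted from the 5' end of miR399g). Reads of miR399d/e can therefore come from MIR399d, MIR399e or MIR399g. As 1 mismatch was allowed, reads of the MIR399e 5' arm may also have been counted as miR399g. The miR2111 sequence is on the 5' arm of both MIR2111a and MIR2111b, of which the shorter is printed with the mature sequence in capitals.
MIR2111a: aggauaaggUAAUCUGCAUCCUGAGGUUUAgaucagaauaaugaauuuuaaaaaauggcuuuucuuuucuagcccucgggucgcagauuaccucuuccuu
The other hairpin, MIR2111b, was 204 nt long against 100 nt for MIR2111a, and which of them the miR2111 reads came from cannot be told apart.

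Values are given as TPM, the reads of a sequence over a total read count of its library, scaled to a common total and not divided by length. The reads behind each value, and the total it was divided by, were recovered from the size of the smallest steps in each library. The values of all 116 names summed to between 79.6 and 92.0% of that total in first-batch libraries and between 45.7 and 54.2% in second-batch libraries. These sums count a shared sequence once for each of its names, so they are not shares of reads. With each sequence counted once, first-batch reads were 205800 of 360147 at 20DAF and 363043 of 410945 at 30DAF. In the second batch they were 406405 of 985281 and 53176 of 105077. Which other reads the total counts was not tested. First-batch totals lay between 233130 and 410945 reads, and those of the second batch between 105077 and 985281. All were well below the clean reads that the study lists for each library, and the reason was not tested. 3 reads, taken here as the floor of detection, corresponded to between 7.30 and 12.9 TPM in first-batch libraries, to 4.96 and 3.04 TPM in the early libraries of the second batch, and to 28.6 and 22.2 TPM in its 30DAF and 40DAF libraries. Intervals on single values are exact 95% intervals of the read count, and they and the floor cover counting error only. The miR159 and miR396 families took 90.7 to 97.6% of the summed TPM of the distinct sequences.

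miR2111a/b was the most abundant of the 7 sequences in every library and ranked between 10 and 15 among the 71 sequences. In the first batch cme-miR2111a and cme-miR2111b, 1 sequence, held 435 TPM in the 10DAF library (95% interval 365 to 514), 694 in the 20DAF library (611 to 786), 621 in the 30DAF library (547 to 702) and 609 in the 40DAF library (513 to 718). The second batch held 199 TPM in the 10DAF library (165 to 237), 563 in the 20DAF library (517 to 612), 542 in the 30DAF library (411 to 703) and 1223 in the 40DAF library (1044 to 1424). The 10DAF library was thus the lowest of its batch on both occasions, and the intervals at 20DAF and 30DAF overlapped within each batch. A lowest value at 10DAF in both batches was found for 9 of the 43 sequences that had a read in every library. At 10DAF the first batch was the higher, and the intervals of the batches did not overlap. From 30DAF to 40DAF the first batch stayed level, while the second reached the highest value of the 8 libraries.

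**Figure D1:**
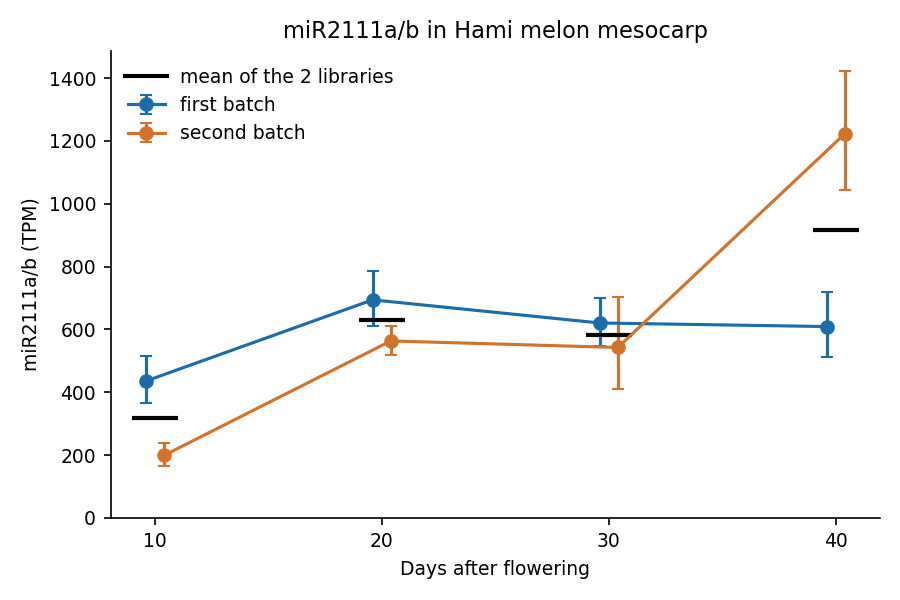
miR2111a/b (TPM, linear axis from 0) against days after flowering, with points joined within the first batch (blue) and the second batch (orange), bars for exact 95% intervals of the read count and black dashes for the mean of the 2 libraries. The 10DAF point is the lowest of each batch, and the second-batch 40DAF library, at 1223 TPM, lies above all others.

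Stage means ± SD (n = 2) of miR2111a/b were 317 ± 167 TPM for 10DAF, 629 ± 92.5 for 20DAF, 581 ± 55.2 for 30DAF and 916 ± 434 for 40DAF. In the order 10DAF, 30DAF, 20DAF, 40DAF the neighbouring stages did not differ beyond their spread. With limma on log2(TPM + 5), 30DAF exceeded 10DAF by 0.97 on the log2 scale (95% interval -0.44 to 2.37, adjusted p = 0.517). The step from 30DAF to 20DAF was smaller still, with 30DAF below 20DAF by a log2 difference of -0.11 (-1.51 to 1.30). The log2 difference of 40DAF against 20DAF was 0.46 (-0.94 to 1.87, adjusted p = 0.867 by limma). Over the whole course the difference was larger, and miR2111a/b was higher at 40DAF than at 10DAF by 1.54 on the log2 scale (SE 0.59, 95% interval 0.13 to 2.94), a 2.90-fold change. It had a limma p of 0.0363 and an adjusted p over the 71 sequences of 0.185. It therefore passed the threshold of the form used in the study (unadjusted p under 0.05 and fold over 1.5) and not the adjusted one. By the former threshold 22.5% of all sequences were called between these stages, 10 higher and 6 lower at 40DAF. The call was lost without any 1 of 6 libraries, all but the first-batch libraries of 10DAF and 40DAF. For the 20DAF and 30DAF libraries of both batches the log2 difference stayed at 1.54 and the limma p was from 0.0552 to 0.0573. The log2 difference was 0.98 (adjusted p = 0.387 by limma) without the second-batch 10DAF library and 1.04 (adjusted p = 0.412) without the second-batch 40DAF library. It was also lost under a scaling to the sum of distinct sequences (log2 difference 1.17, adjusted p = 0.501), under one based on all families except miR159, miR319 and miR396 (0.12) and with only the 4 libraries compared (1.54).

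The batches gave different sizes for this change. The ratio of 40DAF to 10DAF was 1.40 (95% counting interval 1.10 to 1.78) among first-batch libraries and 6.16 (4.84 to 7.86) among those of the second batch. From 10DAF to 20DAF the ratios were 1.59 (1.29 to 1.98) and 2.84 (2.33 to 3.49), both above 1. From 20DAF to 30DAF they were 0.894 (0.748 to 1.07) and 0.963 (0.720 to 1.27), neither separable from 1 by counting error. From 30DAF to 40DAF they were 0.982 (0.794 to 1.21) and 2.25 (1.66 to 3.10). These intervals hold no variation between fruits. 20DAF against 10DAF over both batches gave a log2 difference of 1.07 (SE 0.59, -0.33 to 2.48), and 40DAF against 30DAF gave 0.57 (-0.83 to 1.97, adjusted p = 0.877 by limma).

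For ripening fruit (30DAF and 40DAF) against early fruit (10DAF and 20DAF), miR2111a/b averaged 749 ± 318 against 473 ± 211 TPM (SD, n = 4 each). The ripening value was the higher in 12 of 16 pairs of libraries and the groups overlapped. The log2 difference was 0.71 (SE 0.41, 95% interval -0.28 to 1.71), with an adjusted p of 0.404 by limma and an exact permutation p of 0.229 (two-sided, 35 splits, smallest possible 0.0286). 5.63% of all sequences, 4 of 71, were called in this contrast at an adjusted p under 0.05, and 19 had an unadjusted p under 0.05. 0 of the 7 members were called, and 2 of them, miR399f and miR399g, had an unadjusted p under 0.05 by limma. The ripening mean was 1.09 times the early mean in first-batch fruit and 2.32 times in second-batch fruit. The interaction of ripening with batch was 1.11 on the log2 scale (-0.96 to 3.18, adjusted p = 0.565 by limma), in a contrast where 2.82% of all sequences were called. The median interaction over all 71 sequences was also 1.11, as miR2111a/b was itself the median sequence. The larger change in the second batch was thus not particular to miR2111a/b. The direction turned with a scaling based on all families except miR159, miR319 and miR396, an alternative chosen after seeing the data. The log2 difference was then -0.49 (adjusted p = 0.315 by limma), while the median of all sequences moved by -0.61.

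**Figure D2:**
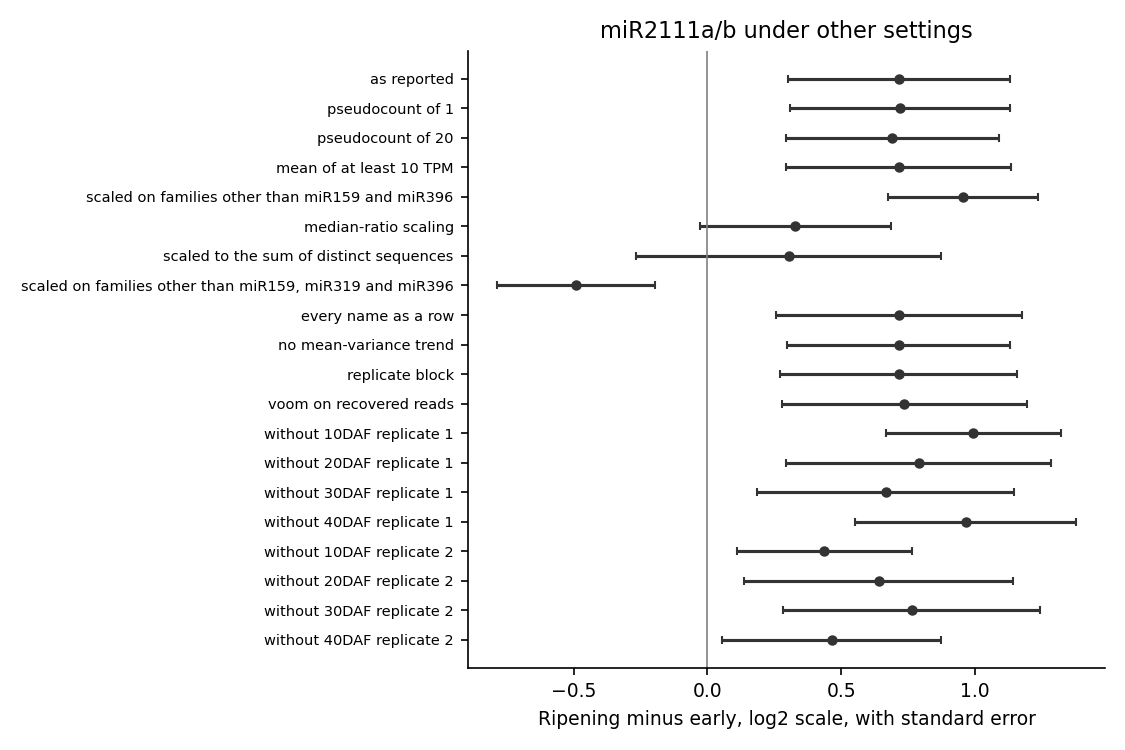
Log2 difference of miR2111a/b between ripening and early fruit, with bars of 1 standard error, as reported (top) and under each other setting. The value is 0.71 as reported and goes below 0, to -0.49, only with the scaling based on all families except miR159, miR319 and miR396.

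Between the batches, miR2111a/b did not keep an order. The second batch library was at 0.456 times the first-batch one for 10DAF, 0.811 times for 20DAF, 0.874 times for 30DAF and 2.01 times for 40DAF. With stage as a covariate the log2 difference of second against first was -0.15 (95% interval -1.24 to 0.93, adjusted p = 0.896 by limma), in a comparison where 2.82% of all sequences were called.

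miR399g was the most abundant miR399 sequence, with 189 reads over the 8 libraries. In the first batch the 10DAF library held 9.53 TPM (3 reads, at the floor), the 20DAF library 80.5 (29 reads), the 30DAF library 214 (88 reads) and the 40DAF library 68.6 (16 reads). In the second batch the 10DAF library held 23.2 TPM (14 reads), the 20DAF library 19.3 (19 reads), the 30DAF library 95.2 (10 reads) and the 40DAF library 74.1 (10 reads). Its highest value fell at 30DAF in both batches, as it did for 6 of the 43 sequences with a read in every library. In the first batch 30DAF was 2.66 times 20DAF (counting interval 1.73 to 4.20) and 40DAF was 0.320 times 30DAF (0.176 to 0.550). In the second batch 30DAF was 4.94 times 20DAF (2.05 to 11.2), but 40DAF, at 0.779 times 30DAF (0.291 to 2.09), could not be separated from it at this depth.

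Averaged over stages, miR399g had 16.3 ± 9.64 TPM for 10DAF, 49.9 ± 43.3 for 20DAF, 155 ± 84.1 for 30DAF and 71.4 ± 3.88 for 40DAF (SD, n = 2). The log2 difference of 30DAF against 10DAF was 2.87 (SE 0.88, 95% interval 0.75 to 4.99), or 7.32-fold on the scale of TPM + 5. Limma gave it a p of 0.0154 and an adjusted p of 0.218, so that it was called by the unadjusted threshold, as were 14.1% of all sequences. The call was lost without the first-batch 10DAF library (log2 difference 2.40) or the first-batch 30DAF library (2.31), and under the scaling on families other than miR159, miR319 and miR396 (1.85). In ripening fruit miR399g averaged 113 ± 68.4 TPM against 33.1 ± 32.1 in early fruit (SD, n = 4 each), higher in 14 of 16 pairs of libraries, with an overlap through the first-batch 20DAF library. The log2 difference was 1.81 (SE 0.63, 0.31 to 3.31), the unadjusted limma p was 0.0249 and the adjusted p was 0.133. The exact permutation p was 0.0857 (two-sided), and the ripening mean was 3.14 times the early mean in first-batch fruit and 3.99 times in second-batch fruit.

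miR399d/e, from the 3' arm of the same hairpins, was found in every library with 3 to 27 reads. In the first batch the 10DAF library held 19.1 TPM, the 20DAF library 41.7, the 30DAF library 51.1 and the 40DAF library 12.9. In the second batch the 10DAF library held 11.6 TPM, the 20DAF library 27.4, the 30DAF library 57.1 and the 40DAF library 37.1. Here too 30DAF was the highest stage of both batches, on 21 and 6 reads, and its mean was 54.1 ± 4.24 TPM against 15.3 ± 5.29 at 10DAF (SD, n = 2). Counting error did not separate it from 20DAF, with ratios of 30DAF to 20DAF of 1.23 (0.603 to 2.56) and 2.08 (0.703 to 5.15). The ratio of 40DAF to 30DAF was 0.252 (0.0481 to 0.843) for first-batch fruit and 0.649 (0.157 to 2.55) for second-batch fruit. The log2 difference of 30DAF against 10DAF was 1.56 (95% interval -0.31 to 3.44, adjusted p = 0.392 by limma). Ripening and early fruit overlapped, at 39.5 ± 19.7 and 24.9 ± 12.9 TPM (SD, n = 4 each), with a log2 difference of 0.53 (-0.80 to 1.85, adjusted p = 0.675 by limma, exact permutation p = 0.371). This direction also turned under the scaling on families other than miR159, miR319 and miR396, to -0.48.

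**Figure D3:**
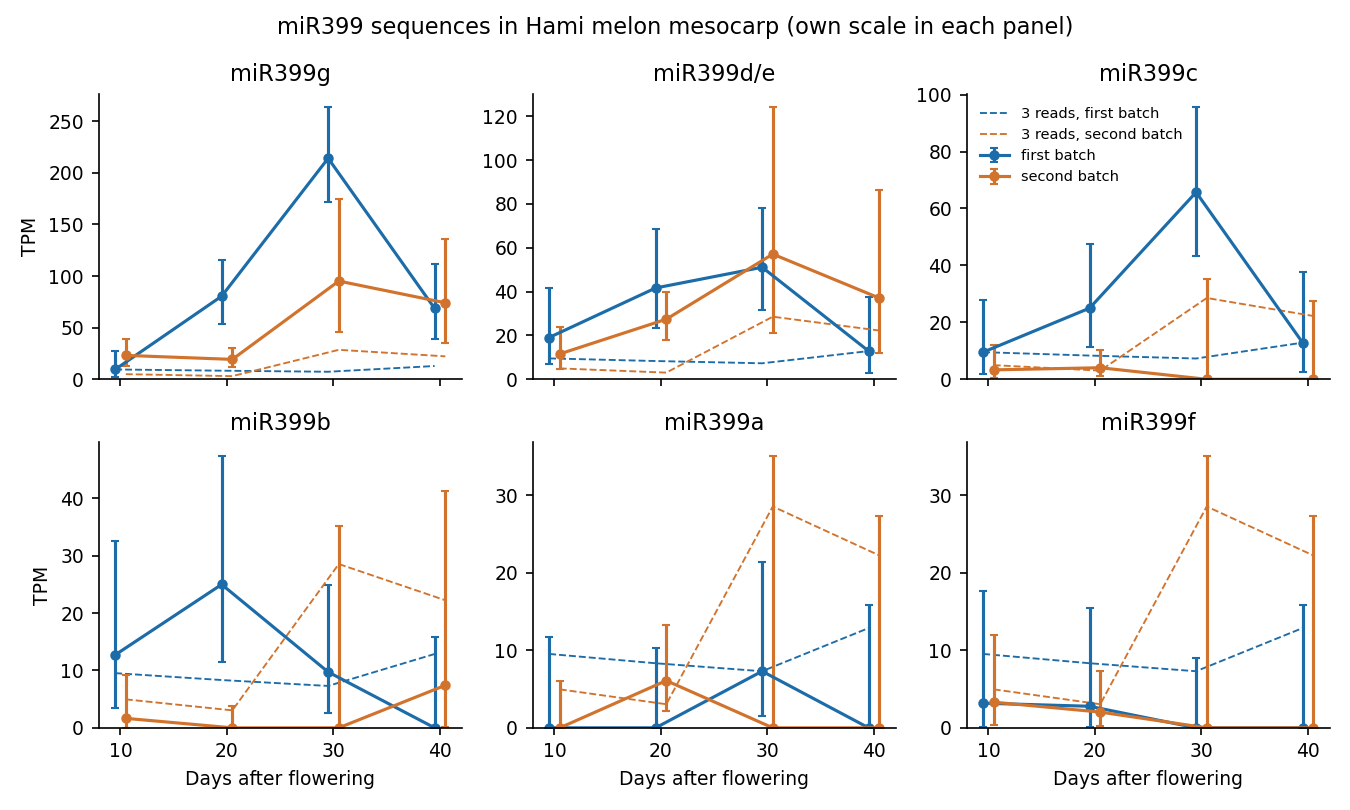
TPM of the 6 miR399 sequences (linear axes from 0, own scale in each panel) against days after flowering in the first batch (blue) and the second batch (orange), with exact 95% intervals of the read count and dashed lines at 3 reads of each library. miR399g and miR399d/e are highest at 30DAF in both batches, and miR399a and miR399f stay at or near the floor.

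The arms of the hairpin were compared within each library. The ratio of miR399g to miR399d/e in first-batch fruit was 0.50 for 10DAF, 1.93 for 20DAF, 4.19 for 30DAF and 5.33 for 40DAF. In second-batch fruit it was 2.0, 0.704, 1.67 and 2.0 for the same stages. miR399g was thus the higher in 6 of 8 libraries, and the exact 95% interval of the ratio was above 1 in 3 of them, at 20DAF (1.003 to 3.88), 30DAF (2.58 to 7.10) and 40DAF (1.53 to 28.6) of the first batch. Over the libraries the mean log2 ratio, with 5 TPM added to each value, was 0.76 ± 0.98 (SD, n = 8), and the exact sign-flip permutation test gave p = 0.0703 (two-sided, smallest possible 0.00781). The mean was 1.04 over first-batch libraries and 0.49 over second-batch libraries, where 4 libraries each allow no exact p below 0.125. The exact p passed 0.05 with a pseudocount of 20 TPM (mean log2 ratio 0.62, p = 0.0469), without the first-batch 10DAF library (0.98, p = 0.0313) and without the second-batch 20DAF library (0.93, p = 0.0469). Without each of the other 6 libraries the exact p rose to between 0.109 and 0.141, and with a pseudocount of 1 TPM it stayed at 0.0703. Since miR399d/e can also come from MIR399e, and reads of its 5' arm may be counted as miR399g, the ratio is not that of a single hairpin.

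**Figure D4:**
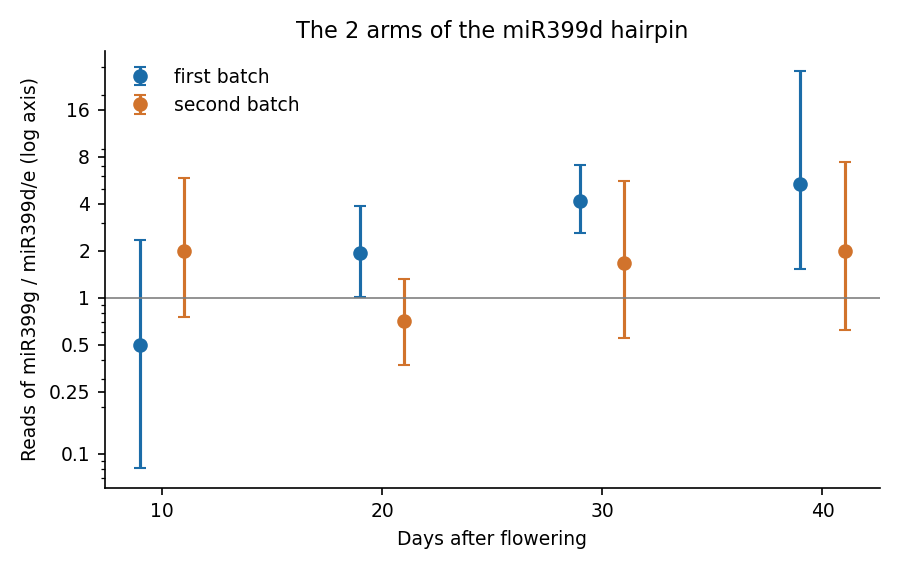
Ratio of the reads of miR399g to those of miR399d/e on a log axis by days after flowering, in the first batch (blue) and the second batch (orange), with exact 95% intervals and a line at 1. The ratio is above 1 in 6 of 8 libraries and runs from 0.50 to 5.33.

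miR399c was listed higher in the first batch at every stage, largely on values at or under the floor. In the first batch the 10DAF library held 9.53 TPM (3 reads), the 20DAF library 24.99 (9 reads), the 30DAF library 65.7 (27 reads) and the 40DAF library 12.9 (3 reads). In the second batch the 10DAF library held 3.31 TPM (2 reads) and the 20DAF library 4.06 (4 reads). Both later libraries were at 0, where the exact 95% interval reached up to 35.1 TPM at 30DAF and 27.3 TPM at 40DAF. The batches could therefore not be distinguished at 40DAF at this depth, while at 30DAF the first batch (95% interval 43.3 to 95.6 TPM) was above that limit. At 20DAF the intervals were 11.4 to 47.4 TPM in first-batch fruit and 1.11 to 10.4 TPM in second-batch fruit. No fold between the batches is given, as most of the values were at or under the floor.

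The remaining miR399 sequences were near the limit of detection. In stage order miR399b was at 12.7, 24.99, 9.73 and 0 TPM in first-batch fruit and at 1.65, 0, 0 and 7.41 TPM in second-batch fruit, where each nonzero value was 1 read. miR399a was at 7.30 TPM in the first-batch 30DAF library (3 reads), 6.09 TPM in the second-batch 20DAF library (6 reads) and 0 in the other 6 libraries. cme-miR399f (miR399f) had 1 read in each early library of the first batch (3.18 and 2.78 TPM) and 2 reads in each of the second (3.31 and 2.03 TPM). At 30DAF and 40DAF it was at 0 in both batches, where the floor was 7.30 to 28.6 TPM. As all its values were at or under the floor, no fold is given and a difference towards ripening fruit was not detectable at this depth, although the fit called miR399f lower at 30DAF and 40DAF than at 10DAF by the unadjusted threshold. 4 of the 7 members, miR2111a/b, miR399c, miR399d/e and miR399g, had a mean of at least 10 TPM.

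In the 6 pairs of stages, by an unadjusted p under 0.05 and a fold over 1.5, the calls among the members were miR399f and miR399g for 30DAF against 10DAF and miR2111a/b and miR399f for 40DAF against 10DAF. Among all sequences 14.1% and 22.5% were called in these pairs, in that order. All values of miR399f were at or under the floor. 0 members were called in the other pairs. There the shares called among all sequences were 7.04% for 20DAF against 10DAF, 5.63% for 30DAF against 20DAF, 14.1% for 40DAF against 20DAF and 9.86% for 40DAF against 30DAF. At an adjusted p under 0.05 by limma, 0 members were called in any pair, against 2.82% of all sequences for 30DAF against 10DAF, 7.04% for 40DAF against 10DAF and 0% in the other 4 pairs. The median log2 difference between ripening and early fruit was 0.04 over the 7 members and 0.08 over all sequences.

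**Figure D5:**
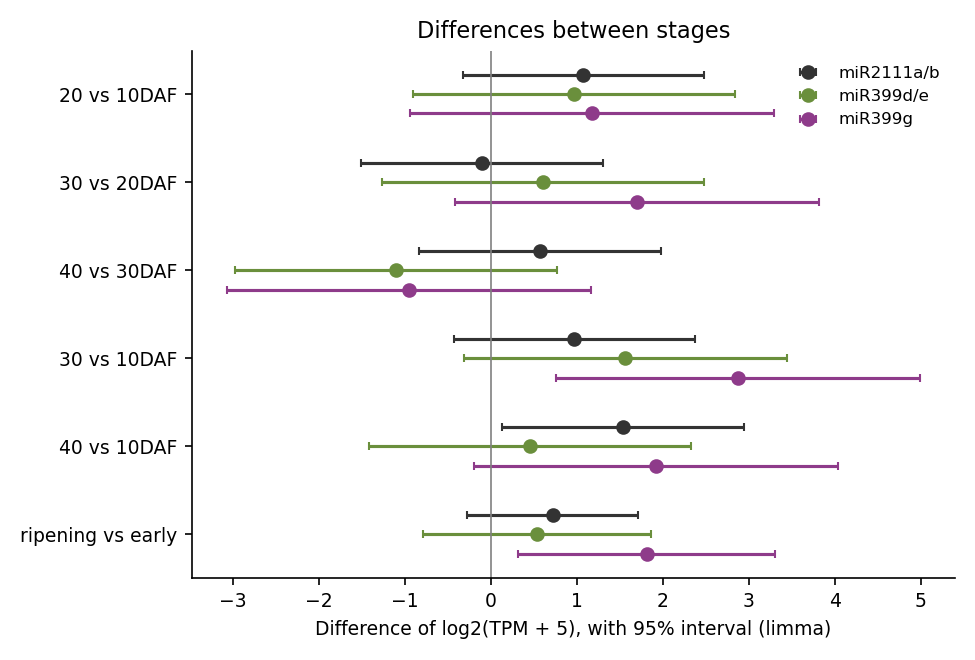
Differences of log2(TPM + 5) between stages for miR2111a/b, miR399d/e and miR399g with 95% intervals from limma, the line at 0 marking no difference. The intervals that leave out 0 are those of miR2111a/b for 40DAF against 10DAF and of miR399g for 30DAF against 10DAF and for ripening against early fruit.

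Summed over its 6 sequences, miR399 reached, in stage order, 54.0, 175, 348 and 94.4 TPM in first-batch fruit and 43.0, 58.9, 152 and 119 TPM in second-batch fruit. The sum was thus highest at 30DAF in both batches. miR2111a/b exceeded it in every library. The ratio was lowest at 30DAF, at 1.78 (first batch) and 3.56 (second batch), and otherwise ran from 3.97 to 10.3. These sums hold miR399g, from the opposite arm, which at 30DAF made up 214 of 348 TPM (first batch) and 95.2 of 152 TPM (second batch). miR399a to miR399f alone were also highest at 30DAF, at 134 and 57.1 TPM. miR399d/e made up from 38.2 to 50% of the summed TPM of miR399a to miR399f across the first batch, and from 58.3 to 100% across the second. The shares of 100 and 83.3% at 30DAF and 40DAF of the second batch rest on 6 and 5 reads of miR399d/e.

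The sequences most like miR2111a/b over the 8 libraries, by Pearson's r of log2(TPM + 5) among the 48 other sequences with a mean of at least 10 TPM, were miR172d (0.860), miR159a (0.824) and miR164c/d (0.816). Those most like miR399g were miR172b/c (0.809), miR164c/d (0.714) and miR166a/b/c/d/f/h (0.703). Among the members, r was 0.652 between miR399d/e and miR399g, 0.575 between miR2111a/b and miR399d/e and 0.490 between miR2111a/b and miR399g. With miR399c it was 0.408 for miR399g, 0.133 for miR399d/e and 0.030 for miR2111a/b. These values are descriptions over libraries that share their stage, batch and scaling.

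The other nutrient miRNAs of the table were set beside them as a list, miR395 with 2 sequences (sulfate assimilation) and miR397, miR398a, miR398b and miR408 (known for copper-dependent regulation). 0 of these 6 were called between ripening and early fruit, with a median log2 difference of -0.27, 3 higher and 3 lower. At 40DAF against 30DAF miR398a and miR398b were called lower by the unadjusted threshold, in a pair where 9.86% of all sequences were called. Their 40DAF values were 4.29 and 14.8 TPM for miR398a and 4.29 and 0 TPM for miR398b (first and second batch). These lay under the floors of 12.9 and 22.2 TPM. In the second batch against the first, where 2.82% of all sequences were called, miR408 was called lower at an adjusted p under 0.05. Its first-batch values ran from 85.8 to 484 TPM and its second-batch values from 13.2 to 19.0 TPM. 0 sequences were called between the batches when any 1 library was left out or with a pseudocount of 20, so that this call was lost each time. The median log2 difference of the second batch against the first was -2.33 over these 6 and -0.15 over the 7 phosphate miRNAs. The median over all sequences was also -0.15, because miR2111a/b was the median sequence of both lists. Of the 7 phosphate miRNAs, 6 were lower and 1 higher in the second batch.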

How the data were processed

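Small RNA of mesocarp was read in 8 libraries, and the suffix 1 or 2 of a library's name was taken as the first or second batch. The authors trimmed reads (FASTX-Toolkit 0.0.13), kept 18 to 30 nt, removed rRNA and tRNA (Rfam 12.0), matched the rest to miRBase 21 with Bowtie and up to 1 mismatch, and deposited TPM, which are reads relative to a read total of each library, with no division by length. Names sharing a mature sequence carry equal values, so each sequence was kept once, and 1 line with an extra empty field was repaired. All 27 to 39 low values of a library were whole multiples of 1 read within 0.1 read, which gave the totals. Values were fitted as log2(TPM + 5) with limma 3.58.1 (R 4.3.3, mean-variance trend, 1 mean per stage, Benjamini-Hochberg over 71 sequences), without a filter on low values. Exact permutation tests were two-sided. The batch fit had stage as a covariate. In the interaction model the 2 stages of a kind within a batch stood as replicates. Hairpins were taken from the study's precursor table and folded with RNAfold 2.7.2, and the rest was done with scipy 1.17.1, pandas 2.3.3 and numpy 2.4.6 under Python 3.11.15.

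The numbers pair libraries by sampling batch, as the study's methods describe it, and deviations from the stage means correlated in 6 of 6 pairs of stages (mean r 0.498, 0.352 to 0.664). P values measure the spread between 2 libraries a stage. All sequences of the named families are reported, with the 3 most like miR2111a/b and miR399g. The members and lists were chosen with earlier results of these data known. Other settings were a pseudocount of 1 or of 20 TPM, keeping sequences with at least 10 TPM on average, 4 other scalings, counting every name, no trend, the batch as a block, the libraries of the compared stages alone, no stage covariate, voom on recovered reads, and leaving out each library. Scaling on families other than miR159, miR319 and miR396, and voom, were chosen after seeing the data. The limma fits were checked on simulated data with large changes and no batch effect, which does not show how they perform on smaller changes or with batch deviations.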

Additional observations from a re-analysis of the deposited data

Results flagged for a closer look

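miR2111a/b in the second-batch 40DAF library, at 1223.02 TPM, stood apart from the other 3 ripening libraries, which lay between 542 and 621 TPM. The gap was 0.885 of the range of the 4 libraries, above Dixon's 95% critical value. miR399a was marked at 7.3 TPM (3 reads) in the first-batch 30DAF library among ripening libraries and at 6.09 TPM (6 reads) in the second-batch 20DAF library among early ones. With the other 3 libraries at 0 in both cases, any value above 0 is marked. The 7.3 TPM was at its own floor and below those of the other ripening libraries (12.9, 28.6 and 22.2 TPM), and 6.09 TPM was below the first-batch floors of 9.53 and 8.33 TPM, so neither was shown to stand apart. These were 3 flags over 14 groups of libraries, of which the ripening group of miR399f, at 0 throughout, could not be tested. Chance alone marks about 1 in 20 groups of normally distributed values. That rate does not hold where most values are 0, as for miR399a.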

How the results depend on the processing

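Of the values under other settings, 309 kept their direction and side of the threshold (counts stayed within 1.5-fold), 48 counts moved further, 12 lost a call, 7 gained one and 12 turned direction. The cause was not tested. The few reads of miR399a, miR399b, miR399c and miR399f limit what these data show of them.

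miR2111a/b between ripening and early fruit ran from 0.44 to 0.99 without single libraries, and its log2 difference was -0.49 when scaled on the families other than miR159, miR319 and miR396. Under that scaling the log2 difference was -0.48 for miR399d/e in ripening fruit, and for miR2111a/b it was -0.18 for 30DAF against 10DAF, -0.80 for 40DAF against 20DAF, -1.10 for 30DAF against 20DAF (a gained call, limma p of 0.0322, adjusted p = 0.457), 0.12 for 40DAF against 10DAF (adjusted p = 0.872 by limma) and 0.038 for the second batch against the first. The last value was 0.37 with median-ratio scaling, 0.46 when scaled to the sum of distinct sequences and -0.53 to 0.17 without single libraries. miR2111a/b at 40DAF against 10DAF was 0.98 to 2.09 without single libraries, 1.17 when scaled to the sum of distinct sequences (adjusted p = 0.501) and 1.54 with only the 4 libraries compared (adjusted p = 0.406). At 30DAF against 20DAF it was 0.36 when scaled on families other than miR159 and miR396 and -0.26 to 0.042 without single libraries, and at 40DAF against 20DAF -0.038 to 0.96 without single libraries. Calls were gained for 30DAF against 10DAF when scaled on families other than miR159 and miR396 (1.08), and without the first-batch 10DAF library for 30DAF (1.52) and 20DAF (1.63) against 10DAF. With the batch as a block (replicate block) its 40DAF against 10DAF difference stayed 1.54 (limma p of 0.0498, adjusted p = 0.192), and the block changed no call among the differences reported for miR2111a/b in the pairs of stages and in ripening fruit, for miR399d/e in ripening fruit and for miR399g in ripening fruit and at 30DAF against 10DAF, and no count by over 1.5-fold. Single values of the other members were not compared under it. The mean log2 ratio of miR399g to miR399d/e was 0.62 with a pseudocount of 20 and 0.58 to 0.98 without single libraries.

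The number of sequences called between ripening and early fruit, 4 (3 higher, 1 lower), became 2 with a pseudocount of 1, 2 (1 higher, 1 lower) on families other than miR159 and miR396 or on the sum of distinct sequences, 5 (3 higher, 2 lower) with median-ratio scaling, 7 (1 higher, 6 lower) on families other than miR159, miR319 and miR396, and 0 to 5 without single libraries. The scalings moved the median log2 difference of all sequences by 0.17, -0.19, -0.23 and -0.61, for families other than miR159 and miR396, the median ratio, the sum and families other than miR159, miR319 and miR396. The number called between batches, 2, became 0 with a pseudocount of 20, 5 with median-ratio scaling or on families other than miR159, miR319 and miR396, 1 on the sum, and 0 without single libraries. For 20DAF against 10DAF, 5 became 3 on families other than miR159 and miR396 or with voom, 2 on the sum or with only the libraries compared, and 1 to 7 without single libraries. For 30DAF against 10DAF, 10 became 17 with every name as a row, and 6 to 12 without single libraries. For 40DAF against 10DAF, 16 became 9 with only the libraries compared. For 30DAF against 20DAF, 4 became 8 on families other than miR159 and miR396, with no trend or with only the libraries compared, 2 on the sum, 7 on families other than miR159, miR319 and miR396, 10 with every name as a row, and 0 to 6 without single libraries. For 40DAF against 20DAF, 10 became 6 to 10 without single libraries. For 40DAF against 30DAF, 7 became 15 with every name as a row, 4 with only the libraries compared or with voom, and 3 to 8 without single libraries. A quasi-likelihood count test on recovered reads was not run.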
